A study of Mus musculus with 13 samples.

Results

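Cd1d1, the gene targeted in CD1d knockout mice, lies on mouse chromosome 3, and 40 genes of the stretch around it are described here. They were chosen by position, from Lrat on the side before Cd1d1 to Smg5 on the side after it. Of the 40 genes, 37 were measured by a probe set annotated to 1 gene symbol, out of 18818 genes measured in all. In RefSeq gene order 16 of the 37 precede Cd1d1 and 21 follow it. Mnd1, Arhgef11 and Lrrc71 were annotated only on probe sets shared with another gene and were not analysed. RNA of whole epididymal white fat from male mice aged 6.5 weeks was measured on 13 Affymetrix gene arrays. All mice ate a high-fat diet for 4 days and were injected into the peritoneum on days 0 and 2. The groups were CD1d knockout after vehicle (3 arrays), wild type after vehicle (3 arrays), CD1d knockout after α-galactosylceramide (αGalCer, 100 ng per g of body weight, 3 arrays) and wild type after αGalCer (4 arrays). The vehicle was pyridine.

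CD1d is a surface protein that presents lipids to natural killer T (NKT) cells, and αGalCer is a glycolipid that activates these cells when CD1d presents it. A knockout allele made in embryonic stem cells of one strain and bred into another keeps a stretch of donor chromosome around the target, because recombination rarely separates close genes. Genes beside the target can then differ between knockout and wild type in sequence as well as in expression. The labels name the knockout strain B6.129S6-Cd1d1/Cd1d2tm1spb/J and give the background of both genotypes as C57Bl/6J. Wild type mice are labelled C57/BL6, and both genotypes were bought and then bred in the same facility. The labels do not say that knockout and wild type mice were littermates, nor how much donor DNA the knockout mice carried. Loss of CD1d, donor alleles near it and a change in how well a probe binds a variant transcript therefore cannot be told apart in any knockout difference given here. Whether each array held RNA of a separate mouse is not given, so the p-values measure the spread between arrays, which may in part be technical. In whole fat, fewer cells of a type and less RNA per cell cannot be told apart either.

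Cd1d1 separated the genotypes on every array. Its log2 expression was 3.45, 4.03 and 3.72 in knockout fat after vehicle, against 10.67, 10.55 and 10.86 in wild type fat after vehicle. After αGalCer it was 3.56, 2.64 and 3.24 in knockout fat, against 10.01, 9.08, 9.74 and 9.71 in wild type fat. Cd1d2, the near-identical gene next to it that the strain name also lists, ranged from 4.62 to 5.01 in the 6 knockout arrays and from 4.62 to 5.05 in the 7 wild type arrays. Its probe set is dim in both genotypes, with a mean of 4.81 over all arrays, and only 29.8% of genes had a lower mean. These ranges therefore do not show whether knockout fat lacks Cd1d2 RNA. The tissue label fits the adipocyte markers, which averaged 12.35 to 12.50 in knockout and 12.25 to 12.37 in wild type arrays after vehicle. Some arrays stood apart in transcripts of other tissues. Skeletal muscle markers averaged 9.23, 7.32 and 6.01 in knockout vehicle replicates 1, 2 and 3 and 9.41 in knockout αGalCer replicate 3, against 5.21 to 6.15 in the 7 wild type arrays. Markers of ductal and ciliated epithelium averaged 5.42 to 8.14 in knockout and 6.02 to 7.56 in wild type arrays after vehicle, but 5.05 to 5.17 in knockout and 5.09 to 5.38 in wild type arrays after αGalCer. Epididymis markers averaged 4.97 in wild type vehicle replicate 3, against 3.38 to 3.70 in all other arrays. In none of the marker lists was a gene called between the genotypes after vehicle.

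The first comparison asked whether the neighbours of Cd1d1 differed between the genotypes when no NKT cell agonist was given. Dclk2 and Gatb were higher in knockout fat, and no neighbour was called lower. Dclk2 encodes a doublecortin-like kinase that binds microtubules, and Gatb a subunit of the mitochondrial enzyme that forms glutamine-charged transfer RNA. The threshold for a call was an adjusted p of 0.05 in limma, with p-values adjusted over all 18818 genes. The 2 called neighbours are 5.41% of 37, beside 0.112% of all genes tested. Over all genes 0.0903% were called higher and 0.0213% lower in knockout fat.

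Dclk2 had the larger difference and lies 2 measured genes before Cd1d1, with Cd1d2 between. Its log2 expression was 6.26, 6.62 and 6.46 in knockout fat after vehicle, against 4.81, 5.20 and 5.06 in wild type fat after vehicle. The groups did not overlap, and the knockout mean was higher by 1.42 ± 0.12 (SE), a 2.69-fold difference (95% interval 1.16 to 1.69 on the log2 scale, adjusted p = 0.000396). Gatb, 12 measured genes before Cd1d1, was at 8.18, 8.09 and 8.20 in knockout fat, against 7.52, 7.39 and 7.28 in wild type fat. It was higher by 0.76 ± 0.10, or 1.69-fold (95% interval 0.55 to 0.97, adjusted p = 0.00867), again without overlap.

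After αGalCer the same genotype difference was measured on arrays that share none with the vehicle comparison. Dclk2 was at 6.49, 6.53 and 6.49 in knockout fat, against 4.90, 4.78, 4.84 and 4.76 in wild type fat. It was higher by 1.68 ± 0.11, or 3.21-fold (adjusted p = 2.03e-07). Gatb was at 7.81, 7.69 and 7.98 in knockout fat, against 7.24, 7.19, 7.16 and 7.10 in wild type fat, higher by 0.65 ± 0.09 (adjusted p = 7.14e-05). Each of the 6 knockout arrays thus lay above each of the 7 wild type arrays for both genes. Among the neighbours these 2 were the only ones so separated, 5.41% of 37, beside 3.16% of all genes (2.38% higher and 0.781% lower in knockout). They were also the only neighbours called in both genotype comparisons in 1 direction, which 0.085% of all genes were. The change of this genotype difference between injections was 0.26 ± 0.17 for Dclk2 (adjusted p = 0.312) and -0.11 ± 0.13 for Gatb (adjusted p = 0.635). The size of the vehicle difference stayed between 1.32 and 1.52 for Dclk2 and between 0.70 and 0.82 for Gatb when arrays or settings were changed, but the call did not always hold. With only the 6 vehicle arrays in the model the adjusted p was 0.163 for Dclk2 and 0.213 for Gatb. Without the 3 arrays richest in muscle transcripts (knockout vehicle replicates 1 and 2 and knockout αGalCer replicate 3), Dclk2 was higher by 1.44 (adjusted p = 0.0639) and Gatb by 0.80 (adjusted p = 0.152). Without wild type vehicle replicate 3 alone, Gatb was higher by 0.70 and no longer called (adjusted p = 0.0532).

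The reference promoter of Dclk2 is shown because this gene had the largest called difference after vehicle, and that of Cd5l because it had the largest negative difference with all arrays in the model. Without wild type vehicle replicate 3, Sfrp2 (-0.99) was lower than Cd5l (-0.82). Both are RefSeq windows of the C57BL/6J assembly GRCm38.p6, from 250 bases before to 50 bases after the start of the gene, printed 5′ to 3′ with CG dinucleotides in capitals. The Dclk2 window is chr3:86920835-86921134 on the minus strand, and the Cd5l window is chr3:87357631-87357930 on the plus strand. The sequence of the knockout mice in these windows was not analysed here.
Dclk2: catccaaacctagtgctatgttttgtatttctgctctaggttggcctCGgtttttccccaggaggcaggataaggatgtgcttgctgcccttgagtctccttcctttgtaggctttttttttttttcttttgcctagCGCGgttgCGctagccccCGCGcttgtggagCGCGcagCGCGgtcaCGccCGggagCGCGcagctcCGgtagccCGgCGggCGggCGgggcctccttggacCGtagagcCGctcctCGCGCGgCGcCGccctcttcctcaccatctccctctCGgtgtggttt
Cd5l: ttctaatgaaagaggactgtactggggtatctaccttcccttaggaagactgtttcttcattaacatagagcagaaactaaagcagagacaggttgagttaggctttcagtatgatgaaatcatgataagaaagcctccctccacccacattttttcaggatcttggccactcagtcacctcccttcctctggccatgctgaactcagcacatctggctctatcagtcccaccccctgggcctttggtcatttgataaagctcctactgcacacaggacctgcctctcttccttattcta
The motif searched was CG, which reads the same on both strands. The Dclk2 window holds 27, and 15.5% of 32851 mouse promoter windows of this length hold at least as many. The Cd5l window holds 0, as do 5.43% of the windows, and the median is 7.

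**Figure D1:**
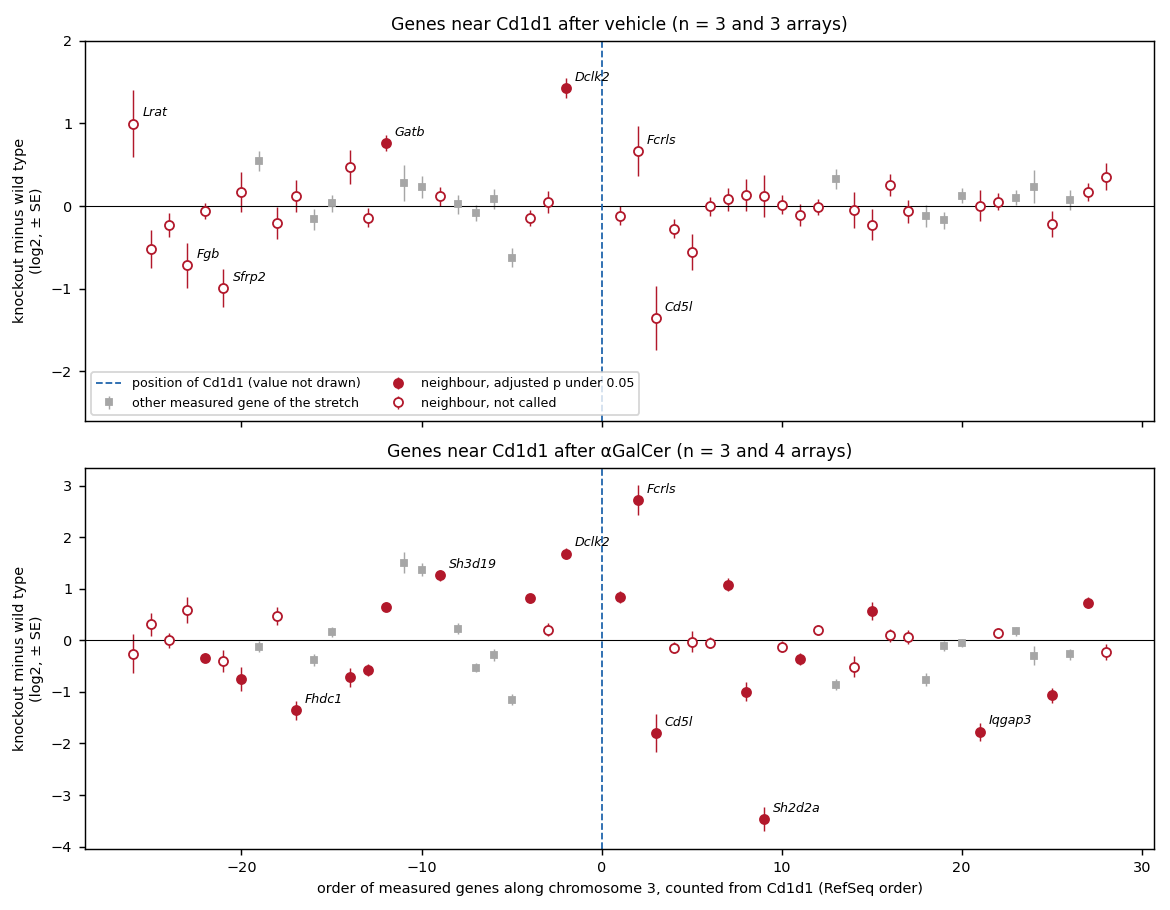
Knockout minus wild type log2 difference (± SE) of the 37 neighbours (circles, filled where called) and of other measured genes of the stretch (grey squares) by gene order from Cd1d1, after vehicle above and after αGalCer below. After vehicle only Dclk2 (1.42) and Gatb (0.76) are filled; after αGalCer 20 circles are filled, from -3.46 for Sh2d2a to 2.72 for Fcrls.

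The called genes did not form an unbroken block along the chromosome. The other listed neighbours between Gatb and Cd1d1 are Sh3d19, an adaptor with SH3 domains, Lrba, a protein of vesicle traffic, and Mab21l2, a gene of eye and body wall development. After vehicle their knockout differences were 0.12 ± 0.11, -0.14 ± 0.10 and 0.05 ± 0.13, with adjusted p of 0.84 or more in limma. On the other side, Kirrel, an adhesion protein of the immunoglobulin superfamily and the nearest measured gene after Cd1d1, differed by -0.11 ± 0.12. Outside this stretch, 0 of 831 other genes of chromosome 3 and 18 of 17932 genes of other chromosomes were called after vehicle. Without Cd1d1 and Cd1d2, all measured genes from Lrat to Smg5 number 53, of which 2, or 3.77%, were called.

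Apart from Dclk2 and Gatb, the neighbours with the smallest p after vehicle were Sfrp2, Cd5l, Fgb, Fcrl5, Lrat and Fcrl1, none of which passed the adjusted threshold. Counted at an unadjusted p under 0.05, 11 of 37 neighbours (29.7%) differed after vehicle, 5 higher and 6 lower in knockout, beside 6.69% of all genes (3.97% higher and 2.72% lower). Over the 37 neighbours the median difference was 0.00, and 0.02 over all genes, while the median size regardless of sign was 0.17 and 0.10.

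Cd5l encodes a protein secreted by macrophages, also called AIM, that inhibits apoptosis and binds lipids. It was at 4.11, 4.30 and 4.73 in knockout fat after vehicle, against 4.96, 5.45 and 6.81 in wild type fat, a difference of -1.36 ± 0.39 (adjusted p = 0.373). Without wild type vehicle replicate 3, the array at 6.81, the difference was -0.82. After αGalCer it was at 5.01, 4.51 and 5.07 in knockout fat, against 7.03, 6.92, 6.16 and 6.52 in wild type fat, lower by 1.80 on the log2 scale (-1.80 ± 0.36, adjusted p = 0.00124). Knockout and wild type did not overlap after either injection. Over both injections the highest knockout array (5.07) passed the lowest wild type array (4.96). The 11 macrophage markers averaged 8.79 to 9.0 in knockout and 8.47 to 9.09 in wild type arrays after vehicle, with 0 called. After αGalCer they averaged 9.08 to 9.38 in knockout and 9.66 to 9.87 in wild type arrays, with 5 lower and 1 higher in knockout. Their part in the Cd5l difference was not tested. Timd4 and Vsig4, markers of resident macrophages, are 2 of the 11 macrophage markers already averaged, and the others are not given singly. Timd4 ranged from 6.51 to 7.09 in knockout and 6.32 to 6.78 in wild type arrays after vehicle. Vsig4 ranged from 6.81 to 7.03 in knockout and 7.17 to 8.14 in wild type arrays. After αGalCer Timd4 ranged from 6.97 to 7.35 in knockout and 6.40 to 6.8 in wild type arrays, without overlap. Vsig4 ranged from 7.42 to 8.01 in knockout and 6.44 to 7.87 in wild type arrays, and these ranges overlapped.

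Fcrls, a scavenger receptor-like gene of the Fc receptor-like family marking resident macrophages and microglia in mice, lies between Kirrel and Cd5l. After vehicle it was at 8.56, 8.83 and 8.80 in knockout fat, against 7.35, 8.27 and 8.57 in wild type fat. That difference of 0.67 ± 0.30 was not called (adjusted p = 0.736). The neighbouring Fcrl1 and Fcrl5, receptors of B cells, are dim on these arrays. Fcrl1 was at 3.85, 4.01 and 4.12 in knockout fat after vehicle, against 4.51, 4.08 and 4.21 in wild type fat (-0.27 ± 0.12, adjusted p = 0.702). Fcrl5 was at 3.61, 3.86 and 4.26 in knockout fat, against 4.29, 4.03 and 5.06 in wild type fat (-0.55 ± 0.22, adjusted p = 0.652). Without wild type vehicle replicate 1 the Fcrl1 difference was -0.15, and without wild type vehicle replicate 3 that of Fcrl5 was -0.25. Without the muscle-rich arrays they were -0.15 and -0.20. Groups overlapped for all 3 genes. After αGalCer the differences of Fcrl1 and Fcrl5 were -0.15 ± 0.11 and -0.03 ± 0.21. The 9 measured B cell markers, of which 0 were called, averaged 5.11 to 5.31 in knockout and 4.89 to 4.91 in wild type arrays after vehicle. Their part in the receptors' values was not tested. These genes belong to a family of similar sequence, so a probe set may also pick up a relative.

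Sfrp2, a secreted modulator of Wnt signalling made by fibroblasts, was at 8.10, 8.43 and 8.49 in knockout fat after vehicle, against 9.04, 9.62 and 9.32 in wild type fat. The difference of -0.99 ± 0.23 had an unadjusted p of 0.000845 in limma's fit, and its groups did not overlap, yet it was not called (adjusted p = 0.196). After αGalCer it was at 9.15, 9.10 and 8.72 in knockout fat, against 9.10, 9.01, 9.91 and 9.56 in wild type fat, and these groups overlapped (-0.40 ± 0.21, adjusted p = 0.156). Without wild type αGalCer replicate 3 that difference was -0.23 (adjusted p = 0.389). With array weights in the model both Sfrp2 differences were called (adjusted p = 0.0205 and 0.0369), as was that of Cd5l after vehicle (adjusted p = 0.0316). The 9 fibroblast markers averaged 10.17 to 10.26 in knockout and 9.89 to 10.26 in wild type arrays after vehicle, with 0 called. After αGalCer they averaged 10.34 to 10.54 in knockout and 8.92 to 9.50 in wild type arrays, and all 9 were called higher in knockout, while Sfrp2 had a negative difference. The part of these shifts in the Sfrp2 values was not tested.

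The fibrinogen chains Fga, Fgb and Fgg, adjacent genes whose products join into the clotting protein made chiefly by liver, had lower means in knockout fat after vehicle without being called. Fgb was at 5.85, 5.37 and 6.83 in knockout fat, against 6.90, 6.76 and 6.53 in wild type fat (-0.72 ± 0.27, adjusted p = 0.602). Fgg differed by -0.52 ± 0.23 and Fga by -0.23 ± 0.15. The third knockout array lay within the wild type range of Fgb, and the other two lay below it. The 9 hepatocyte markers averaged 6.09, 5.49 and 6.96 in the same knockout arrays, against 6.56, 6.46 and 6.28 in the wild type arrays. Albumin (Alb) ranged from 8.92 to 10.72 in knockout and from 10.24 to 10.40 in wild type arrays after vehicle. The part of such transcripts in the Fgb difference was not tested. Without the 3 arrays rich in muscle transcripts, which leaves 1 knockout array after vehicle, the difference was 0.10 (adjusted p = 0.94). It was -0.39 without knockout vehicle replicate 2, and -1.12 and called without replicate 3 (adjusted p = 0.027).

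Lrat, which esterifies retinol for storage, had 1 high knockout array. It was at 6.87, 5.02 and 4.71 in knockout fat after vehicle, against 4.56, 4.49 and 4.55 in wild type fat (1.00 ± 0.41, adjusted p = 0.681). The groups did not overlap. The high array, knockout vehicle replicate 1, also had the highest mean of epithelial markers (8.14) among all arrays, and muscle markers at 9.23. Epithelial markers averaged 6.45 in knockout vehicle replicate 2, where Lrat was at 5.02. They averaged 7.22 and 7.56 in wild type vehicle replicates 1 and 3, where Lrat was at 4.56 and 4.55. In knockout αGalCer replicate 3 muscle markers averaged 9.41 and Lrat was at 4.64. The part of such transcripts was not tested. Without knockout vehicle replicate 1 the difference was 0.33, and without the 3 muscle-rich arrays 0.17. After αGalCer Lrat was at 4.53, 4.52 and 4.64 in knockout fat, against 4.66, 4.66, 4.71 and 5.27 in wild type fat, with a difference of -0.26 ± 0.38, or -0.11 without wild type αGalCer replicate 4.

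**Figure D2:**
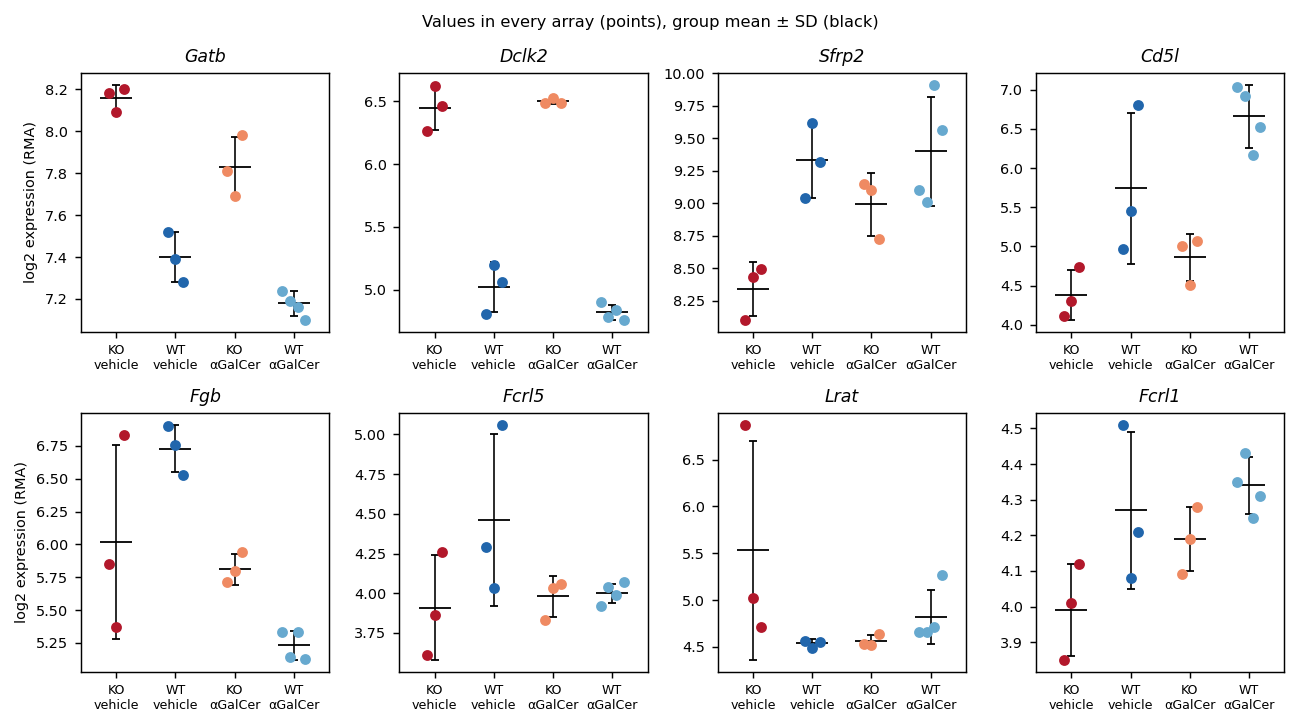
Log2 expression of the 8 neighbours described with array values, with 1 point per array and the group mean ± SD in black, for knockout (KO) and wild type (WT) after vehicle and after αGalCer. Gatb and Dclk2 are higher in all 6 knockout arrays than in all 7 wild type arrays, and Lrat has 1 high knockout array at 6.87.

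The other 29 neighbours differed by -0.52 (Fgg) to 0.67 (Fcrls) after vehicle, with adjusted p of 0.705 or more in limma. Of these, 24 differed by less than 0.25 in size, and for 15 the 95% interval lay within 0.5 either way. Genes of general cell functions were among those with narrow intervals. For Mef2d, a transcription factor, the interval was -0.17 to 0.28. It was -0.26 to 0.14 for Plrg1, a spliceosome protein, -0.25 to 0.24 for Etv3, an ETS repressor, and -0.22 to 0.26 for Prcc, a nuclear protein linked to splicing. Rrnad1, a methyltransferase-like protein, had an interval of -0.23 to 0.21. Wider intervals were those of Tlr2, the receptor for bacterial lipoproteins (-0.36 to 0.70), and Sh2d2a, a T cell adaptor (-0.43 to 0.67). A difference of the size of Gatb's (0.76) lies outside each of these intervals. It lies within those of Fcrls (0.01 to 1.32) and Tmem154 (0.04 to 0.91), and its negative within that of Fgg (-1.02 to -0.01).

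The second comparison set knockout against wild type after αGalCer, the agonist that CD1d presents. It called 20 of 37 neighbours, or 54.1%, beside 41.1% of all genes, 9 of them higher and 11 lower in knockout. The corresponding shares over all genes were 21.9% higher and 19.2% lower. The comparison shares the wild type αGalCer arrays with that of αGalCer and vehicle in wild type fat, so effects of αGalCer within each genotype are given beside it for Sh2d2a, Iqgap3, Fhdc1, Fcrls, Sh3d19 and Pear1.

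Sh2d2a had the largest difference after αGalCer. It was at 5.32, 5.03 and 4.75 in knockout fat, against 9.11, 7.94, 8.23 and 8.71 in wild type fat (-3.46 ± 0.24, or 11-fold lower, adjusted p = 2.22e-07). Its αGalCer effect was -0.01 ± 0.25 in knockout and 3.57 ± 0.24 in wild type. T and cytotoxic cell markers averaged 5.32 to 5.85 in knockout and 8.55 to 9.01 in wild type arrays after αGalCer, and all 9 were called lower in knockout. Iqgap3, a scaffold protein of dividing cells, was at 5.85, 5.87 and 5.8 in knockout fat, against 7.50, 7.89, 7.70 and 7.36 in wild type fat (-1.77 ± 0.17, adjusted p = 3.28e-06). Its αGalCer effect was 0.20 ± 0.19 in knockout and 1.98 ± 0.17 in wild type. The 9 markers of dividing cells averaged 6.18 to 6.27 in knockout and 8.12 to 9.10 in wild type arrays. Their part in either difference was not tested.

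Fhdc1, a formin that organises actin and microtubules, was at 4.84, 4.95 and 4.68 in knockout fat, against 6.28, 6.54, 5.94 and 5.97 in wild type fat (-1.36 ± 0.18, adjusted p = 4.17e-05). Its αGalCer effect was -0.25 ± 0.19 in knockout and 1.23 ± 0.18 in wild type. Cct3, a subunit of the chaperonin that folds actin and tubulin, was lower in knockout by 1.06 on the log2 scale (-1.06 ± 0.14), and Insrr, an alkali-sensing relative of the insulin receptor, by 1.0 (-1.0 ± 0.18). Tlr2 (-0.75 ± 0.23), Tmem154, a transmembrane protein (-0.72 ± 0.19), and Fbxw7, the substrate receptor of a ubiquitin ligase (-0.57 ± 0.11), were lower too. The growth factor Hdgf (-0.36 ± 0.12) and Plrg1 (-0.34 ± 0.09) had the smallest called differences in this direction.

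Fcrls had the largest difference upward. It was at 8.66, 8.66 and 8.71 in knockout fat after αGalCer, against 6.41, 5.43, 6.37 and 5.63 in wild type fat (2.72 ± 0.28, or 6.58-fold higher, adjusted p = 5.26e-06). In wild type fat αGalCer lowered Fcrls (-2.10 ± 0.28), and in knockout fat the effect was -0.05 ± 0.30. Cd5l, the next gene and also one of macrophages, had an αGalCer effect of 0.48 ± 0.39 in knockout and 0.92 ± 0.36 in wild type, neither of them called. In the knockout comparison after αGalCer these 2 macrophage genes had opposite signs (-1.80 for Cd5l, 2.72 for Fcrls). The Cd5l difference was also negative after vehicle (-1.36, not called). Between injections the genotype difference of Cd5l changed by -0.44 ± 0.53 (adjusted p = 0.629 in limma). For Fcrls it changed by 2.05 ± 0.41 (adjusted p = 0.00224 in limma).

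Sh3d19 was at 9.13, 9.04 and 8.96 in knockout fat after αGalCer, against 7.66, 7.60, 8.05 and 7.82 in wild type fat (1.26 ± 0.11, adjusted p = 1.04e-06). Here αGalCer gave 0.16 ± 0.11 in knockout and -0.98 ± 0.11 in wild type. Pear1, a receptor of platelets and endothelium, was at 8.40, 8.43 and 8.26 in knockout fat, against 7.60, 6.97, 7.22 and 7.33 in wild type fat (1.08 ± 0.13, adjusted p = 2.11e-05), with an αGalCer effect of -0.07 ± 0.14 in knockout and -1.06 ± 0.13 in wild type. The 10 endothelial markers averaged at least 9.96 in knockout and at most 8.67 in wild type arrays, and all 10 were called higher in knockout. Other tissue markers lay the same way after αGalCer. Adipocyte markers averaged 12.39 to 12.42 in knockout and 10.69 to 11.37 in wild type arrays, with 9 of 9 called higher in knockout. Of the fibroblast and the mesothelial markers 9 of 9 and 9 of 10 were called higher in knockout. The part of these shifts in the neighbours' differences was not tested. Kirrel (0.84 ± 0.11), Lrba (0.82 ± 0.09), the skin barrier gene Tmem79 (0.73 ± 0.10) and nestin (Nes, 0.56 ± 0.18), an intermediate filament of progenitors and vessels, were also higher. With Dclk2, Gatb, Fcrls, Sh3d19 and Pear1 these make the 9. The 17 neighbours that were not called after αGalCer differed by -0.51 (Crabp2, a retinoic acid carrier) to 0.58 (Fgb). Fgb, at an adjusted p of 0.0851, was called at this size with only the αGalCer arrays in the model (0.00116) and without knockout vehicle replicate 2 (0.0302) or 3 (0.00404), and at 0.52 without the muscle-rich arrays (0.00909), all adjusted p in limma. They include Trim2, a ubiquitin ligase, Smg5, a factor of nonsense-mediated decay, and the brain matrix genes Bcan and Hapln2.

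**Figure D3:**
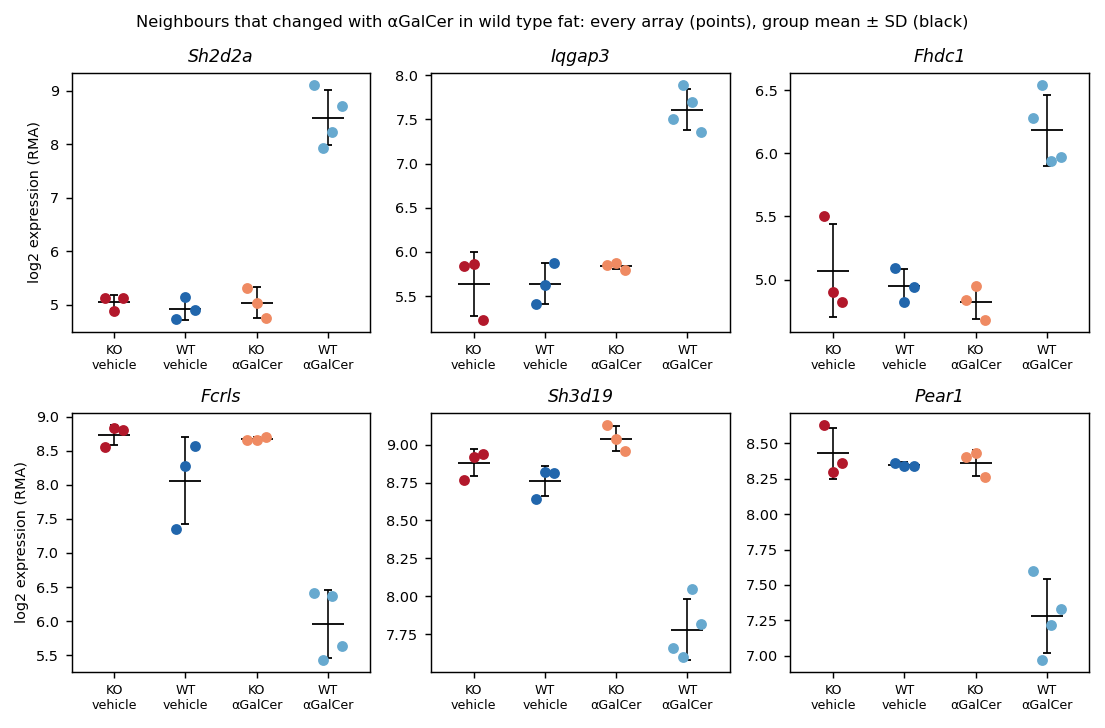
Log2 expression of 6 neighbours with large differences after αGalCer, with 1 point per array and the group mean ± SD in black, for knockout (KO) and wild type (WT). The 4 wild type arrays after αGalCer lie above all other arrays for Sh2d2a, Iqgap3 and Fhdc1, and below all others for Fcrls, Sh3d19 and Pear1.

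Within wild type fat αGalCer changed 21 of 37 neighbours, 10 upward and 11 downward, or 56.8%, beside 41.9% of all genes (19.8% upward and 22% downward). Within knockout fat limma called 0 of 37 neighbours, beside 0% of all genes, and 3 neighbours (8.11%, beside 6.81% of all genes) had an unadjusted p under 0.05. Those 3 were Sfrp2 (0.65 ± 0.23), Gatb (-0.33 ± 0.10) and Lrat (-0.97 ± 0.41), each with adjusted p = 0.72. With array weights 1 neighbour was called lower in knockout fat. Among the genes called in wild type, the fibrinogen chains fell by 1.5 ± 0.25 for Fgb, 1.16 ± 0.22 for Fgg and 0.47 ± 0.14 for Fga on the log2 scale. For Fga this rests on 1 of 2 probe sets, since the other had -0.03 ± 0.14. Hepatocyte markers averaged 5.27 to 5.53 in wild type arrays after αGalCer and 6.28 to 6.56 after vehicle, and 5 of 9 were called lower. Tlr2 rose by 1.27 ± 0.23, Tmem154 by 1.55 ± 0.19 and Smg5 by 0.44 ± 0.15, and Trim2 fell by 0.56 ± 0.18. Dclk2 (-0.20 ± 0.11) and Gatb (-0.22 ± 0.09) were not called in wild type (adjusted p = 0.186 and 0.0716).

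The genotype difference itself differed between the injections for 14 of 37 neighbours, or 37.8%, beside 28.2% of all genes (14.3% more positive and 13.9% more negative). It was more positive after αGalCer for 8 genes and more negative for 6. Sh2d2a (-3.59 ± 0.35), Fcrls (2.05 ± 0.41) and Iqgap3 (-1.78 ± 0.25) had the largest changes.

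**Figure D4:**
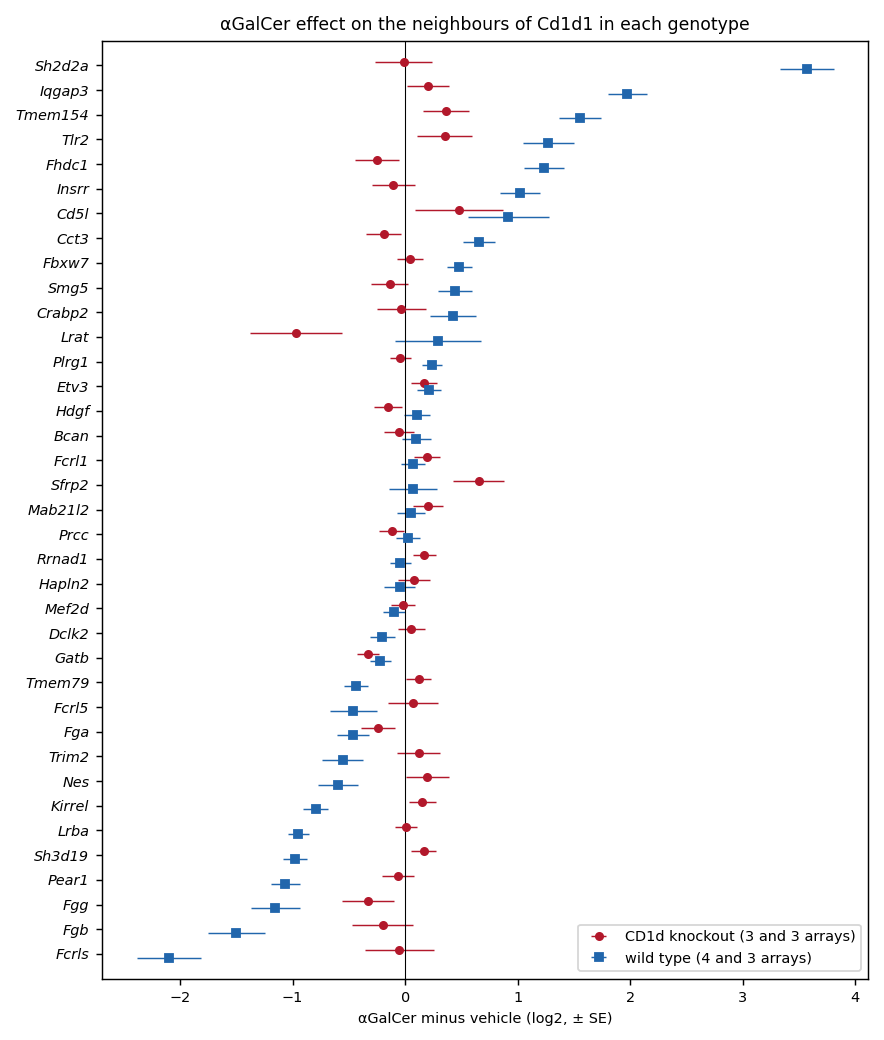
Effect of αGalCer (αGalCer minus vehicle, log2, ± SE) on each of the 37 neighbours in knockout (circles) and wild type (squares), ordered by the wild type effect. Wild type effects run from -2.10 (Fcrls) to 3.57 (Sh2d2a), and knockout effects from -0.97 (Lrat) to 0.65 (Sfrp2).

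For all but 4 of the 37 neighbours, so also for Dclk2 and Gatb, a single probe set was available, so no second probe set could be set beside it. For the 4 with a second, dimmer probe set the values did not always match. Tmem154 had -0.72 ± 0.19 on the probe set used and -0.52 ± 0.14 on the other after αGalCer, but Fbxw7 had -0.57 ± 0.11 and -0.02 ± 0.10. Mef2d (0.13 ± 0.10 and 0.19 ± 0.14) and Fga (0.00 ± 0.14 and 0.04 ± 0.14) were near 0 on both in that comparison. Their αGalCer effects in wild type fat differed between the probe sets, with -0.10 ± 0.10 and -0.44 ± 0.14 for Mef2d and -0.47 ± 0.14 and -0.03 ± 0.14 for Fga. The Fbxw7 effect in wild type fat was likewise 0.48 ± 0.11 on the probe set used and 0.04 ± 0.10 on the other. A further 16 measured genes lie among the neighbours without being on the list. After vehicle 0 of them were called by limma, beside 0.112% of all genes. An unadjusted p under 0.05 was found for 3 (18.8%), beside 6.69% of all genes. After αGalCer 7 of the 16 (43.8%) were called, beside 41.1% of all genes. Only 1 (6.25%, beside 3.16% of all genes) separated all knockout from all wild type arrays. This gene, the small nucleolar RNA Snord73b, lay lower in all 6 knockout arrays than in all 7 wild type arrays. It was at 7.17, 7.31 and 6.94 in knockout fat after vehicle, against 7.63, 7.88 and 7.77 in wild type fat (-0.62 ± 0.12, adjusted p = 0.0962). After αGalCer the difference was -1.15 ± 0.11 (adjusted p = 2.69e-06).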

How the data were processed

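The authors deposited 1 table of log2 expression by probe set and array. The submitters' processing notes name RMA, a method of background correction, quantile normalisation and summary of probes. Neither software version nor genome build is given in the sources used here. Values ran from 1.53 to 13.84 and array medians from 5.68 to 5.83. RMA compresses dim probe sets, so changes from low levels are understated. No detection calls or scan dates were used, and precision is limited by how many arrays there are.

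Of 35556 probe sets, 21218 had 1 gene symbol, 1881 several and 12457 none. Current symbols came from the RefSeq table of GRCm38.p6, matched on Entrez identifiers (21185 probe sets; 3 more by accession, and 30 kept their symbol). That table also gave chromosomes and gene order, and Pet112, Pet112l and Msr2 counted as older symbols of Gatb and Fcrls. The probe set with the highest mean stood for a gene, which left 18818 genes. All 13 arrays entered 1 limma fit (version 3.58.1 in R 4.3.3) that gave each group its mean, with 9 residual degrees of freedom and an intensity trend in eBayes. The model was tested on simulated data. Tests were two-sided with Benjamini-Hochberg adjustment over all genes, and ± after a difference is its SE. The neighbours, marker lists and tests were chosen with earlier results of these data known. Array values are given for neighbours called after vehicle or separating all arrays by genotype, filled up to 8 by the smallest p after vehicle. Other neighbours are given by group, with the largest called changes after αGalCer. Marker values are means of log2 expression over a list. None of the marker genes was called after vehicle, lists for mesothelium, epididymis, nerve sheath and erythroid cells included. Alternatives covered the variance model, arrays in the fit, normalisation, array weights, dim genes, probe set choice and the replicate number as a block.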

Additional observations from a re-analysis of the deposited data

Results flagged for a closer look

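In the wild type group after αGalCer, the only group large enough for the check, 1 array stood far from the other 3 for 3 genes (gap to the nearest array as a share of the group's range). Lrat had 5.27 in replicate 4, against 4.66 to 4.71 in the others (0.926). Fbxw7 had 6.82 in replicate 2, against 6.60 to 6.61 (0.926). Hapln2 had 4.24 in replicate 4, against 4.43 to 4.45 (0.913). Of 39 genes checked, Cd1d1 and Cd1d2 included, chance flags about 1 in 20.

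The knockout minus wild type difference was more positive after αGalCer than after vehicle, by the limma interaction term, for Fcrls (2.05), Fgb (1.30), Sh3d19 (1.14), Pear1 (1.00), Lrba (0.96), Kirrel (0.95), Nes (0.79) and Tmem79 (0.56). It was more negative after αGalCer for Sh2d2a (-3.59), Iqgap3 (-1.78), Fhdc1 (-1.49), Tmem154 (-1.19), Insrr (-1.13) and Cct3 (-0.85). The adjusted p of these 14 genes ran from 1.64e-05 for Sh2d2a to 0.0372 for Nes.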

How the results depend on the processing

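The 2 neighbours called after vehicle, Dclk2 and Gatb, were 0 with only the 6 vehicle arrays in the model, where 4 genes were called in all against 21, 0 without the 3 arrays rich in muscle transcripts, where 1 gene was called and the 1 knockout vehicle array left is assumed to vary like the other groups, and 4 with array weights, where 169 genes were called. Leaving out 1 array at a time gave 1 to 3. The count was 1 without wild type vehicle replicate 3, where Gatb was at 0.70 (adjusted p = 0.0532). Across all alternatives the Dclk2 difference stayed between 1.32 and 1.52 after vehicle and 1.66 and 1.71 after αGalCer, and that of Gatb between 0.70 and 0.82 and between 0.58 and 0.72. The 20 neighbours called after αGalCer ranged from 20 to 25 under the alternatives (9484 genes in all at 25, against 7739) and from 17 to 21 with 1 array left out (6674 genes in all at 17), and the 21 called in wild type from 18 to 22 and from 18 to 23. Array weights called 1 neighbour for αGalCer in knockout instead of 0, and 322 genes in all instead of 0. For the interaction, array weights called 19 neighbours instead of 14 (7225 genes in all, against 5309). With 1 array left out that count ran from 13 to 15, and it was lower than 14 without the 3 muscle-rich arrays. Neighbours separating all knockout from all wild type arrays numbered 4 instead of 2 with arrays centred on their medians (472 genes in all, against 594), and 6 without the 3 arrays rich in muscle transcripts (2086 genes). They ranged from 2 to 6 with 1 array left out, with 4 without wild type vehicle replicate 3 (860 genes) and 6 without knockout vehicle replicate 1 (1152 genes). Fewer arrays make such separation easier. The Fgb difference after vehicle reversed to 0.10 without the muscle-rich arrays, and that of Fcrl5 after αGalCer ran from -0.07 to 0.05 with 1 array left out. The cause of these shifts was not tested. Same-numbered replicates of the vehicle groups correlated in their deviations at 0.48, 0.48 and -0.11. Those of the αGalCer groups correlated at 0.10, -0.06 and 0.08. Across injections the values were 0.30, -0.02 and 0.09 in wild type and -0.01, -0.09 and -0.04 in knockout. These mixed values do not settle whether the numbers mark pairs, and the main fit did not take them as pairs. With the replicate number as a block, 2, 20, 15, 19 and 0 neighbours were called after vehicle, after αGalCer, for the interaction and for αGalCer in wild type and in knockout, against 2, 20, 14, 21 and 0 without it. Genes with a mean under 5 were left out of 1 alternative, which therefore holds no value for Lrat, Fcrl1 and Fcrl5.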
